A study of Mus musculus with 12 samples.

Results

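The 95 Zfp genes described here are the protein-coding genes of chromosomes 2, 4, 12 and 13 that RefSeq names Zfp followed by digits and an optional letter, out of 21523 protein-coding genes used from chromosomes 1 to 19 and X. Each was intersected with a list of 28210 domains of H4K20me3, trimethylation of lysine 20 of histone H4, on the mouse build mm10. Zfp352 on chromosome 4 was the only Zfp gene left out by the rule, so none was lost for starting in the first 3 Mb. The lowest start of a member was at base 18387491. Chromosome 13 held 37 members, chromosome 2 held 27, chromosome 4 held 26 and chromosome 12 held 5. The symbol is a naming rule, so members of other zinc finger types are included. Zinc finger genes with other names, such as Rsl1 on chromosome 13, are not members.

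The chromatin came from the mouse embryonic stem cell line dTKO, with the genotype Suv39h1fl/fl; Suv39h2-/-; Setdb1fl/fl in every group. Auxin (100 μg/ml) and dTAG13 (0.5 μM), compounds that trigger the degradation of proteins fused to a degron, were given for 0, 12, 24 or 48 h, in 12 libraries, 3 per time. The labels do not say which proteins carry a degron, and all libraries come from 1 line that lacks Suv39h2. The list names no sample or time and carries no signal, so it holds no replicate error, no depth and no decay, and in bulk chromatin it does not tell how many cells carried the mark at a domain. All comparisons below are therefore descriptions of 1 list without a test.

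Most Zfp proteins bind DNA through an array of zinc fingers, and many begin with a KRAB domain, which recruits the corepressor Trim28 (KAP1). Trim28 brings in the H3K9 methyltransferase Setdb1 and HP1 proteins, and H4K20me3 is laid down downstream of H3K9me3 by the enzymes Kmt5b and Kmt5c. KRAB zinc finger genes arise by tandem duplication, and the arrays on mouse chromosomes 2, 4 and 13 are known as rodent expansions. Zinc finger gene clusters are themselves known as sites of H3K9me3, chiefly over their finger-coding exons near the gene end.

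Members were called clustered where at least 3 stood in a run with gaps of at most 500 kb, and single otherwise. This gave 57 clustered genes in 7 clusters and 38 single genes, of which 4 stood in 2 pairs. The rule uses position alone, so the classes do not fully separate expanded arrays from other genes. The promoters of the single genes Zfp967 and Zfp973 were 100 and 99.7% identical to those of the clustered Zfp966 and Zfp968. In the cluster Zfp335 to Zfp334, the highest promoter identity to another member was 53.8%. The widest gap inside a cluster was 438.7 kb, between Zfp335 and Zfp663, and the narrowest gap between runs was 589.9 kb, between Zfp966 and Zfp967 on distal chromosome 2.

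H4K20me3 domains met 20 of the 95 members (21.1%), where a gene met a domain if they shared at least 1 base. The share over all protein-coding genes was 14.1%, over those of the same 4 chromosomes 14.4%, and over the 298 other Zfp genes 16.1%. Among clustered genes 10 of 57 (17.5%, exact Clopper-Pearson interval 8.75 to 29.9%) met a domain, and among single genes 10 of 38 (26.3%, 13.4 to 43.1%). The difference, -8.77 percentage points, had a counting interval of -27.7 to 9.10, and that of members minus other protein-coding genes, 6.94 points, one of -0.768 to 16.5, so both included 0. The intervals describe only the number of genes, since neighbours share sequence and are not independent. With at least 10% of the body covered the counts were 7 of 57 clustered and 4 of 38 single genes, so the order of the classes turned round. Of all protein-coding genes 3.91% reached this share, and of the other Zfp genes 25 of 298. With at least 50% covered the counts were 2 clustered genes and 1 single gene. Beside them stood 0.739% of all protein-coding genes and 4 of the 298 other Zfp genes.

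**Figure D1:**
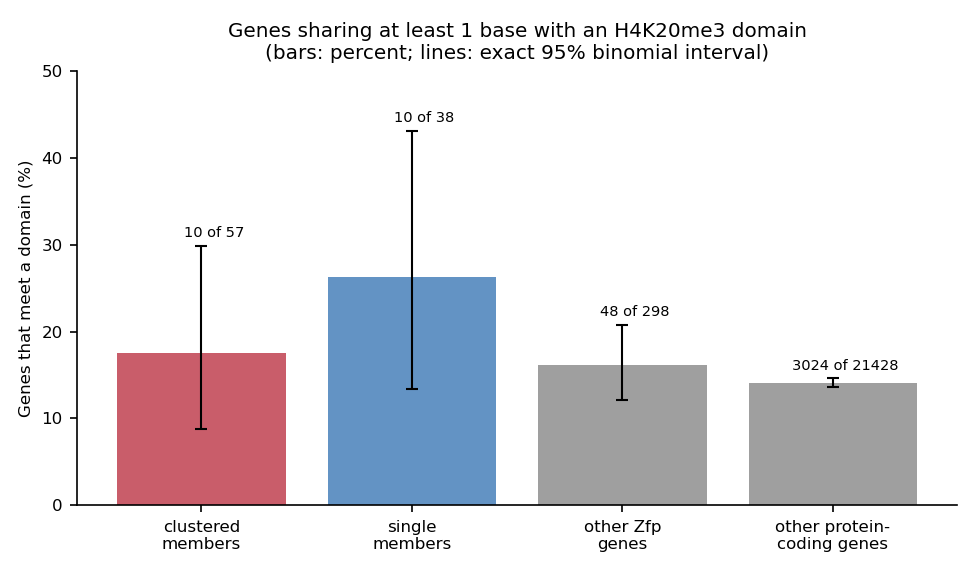
Percent of genes that share at least 1 base with an H4K20me3 domain (bars) with the exact 95% binomial interval (lines), for clustered members, single members, Zfp genes on other chromosomes and other protein-coding genes. The intervals of the clustered (17.5%) and single (26.3%) members overlap.

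The clusters ranged from none of 16 members on a domain to 2 of 3. The larger cluster of chromosome 13 (Zfp640 to Zfp273) had 7 of 24 members on a domain, the smaller one (Zfp808 to Zfp934) 2 of 3, and the cluster Zfp970 to Zfp931 of distal chromosome 2 had 1 of 4. No domain met any of the 16 members of the chromosome 4 cluster (Zfp990 to Zfp933), of the 4 of Zfp120 to Zfp345, of the 3 of Zfp335 to Zfp334, or of the 3 of Zfp968 to Zfp966 on chromosome 2. In 4 of 7 clusters, with 26 genes, domains thus met no member. Among them, Zfp335 to Zfp334 is a cluster by position and not by promoter likeness. Leaving out chromosome 4 gave 10 of 41 clustered genes (24.4%) and 6 of 28 single genes (21.4%), and leaving out chromosome 13 gave 1 of 30 (3.33%) and 9 of 28 (32.1%), so each of these chromosomes decided the order or the size of the difference.

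**Figure D2:**
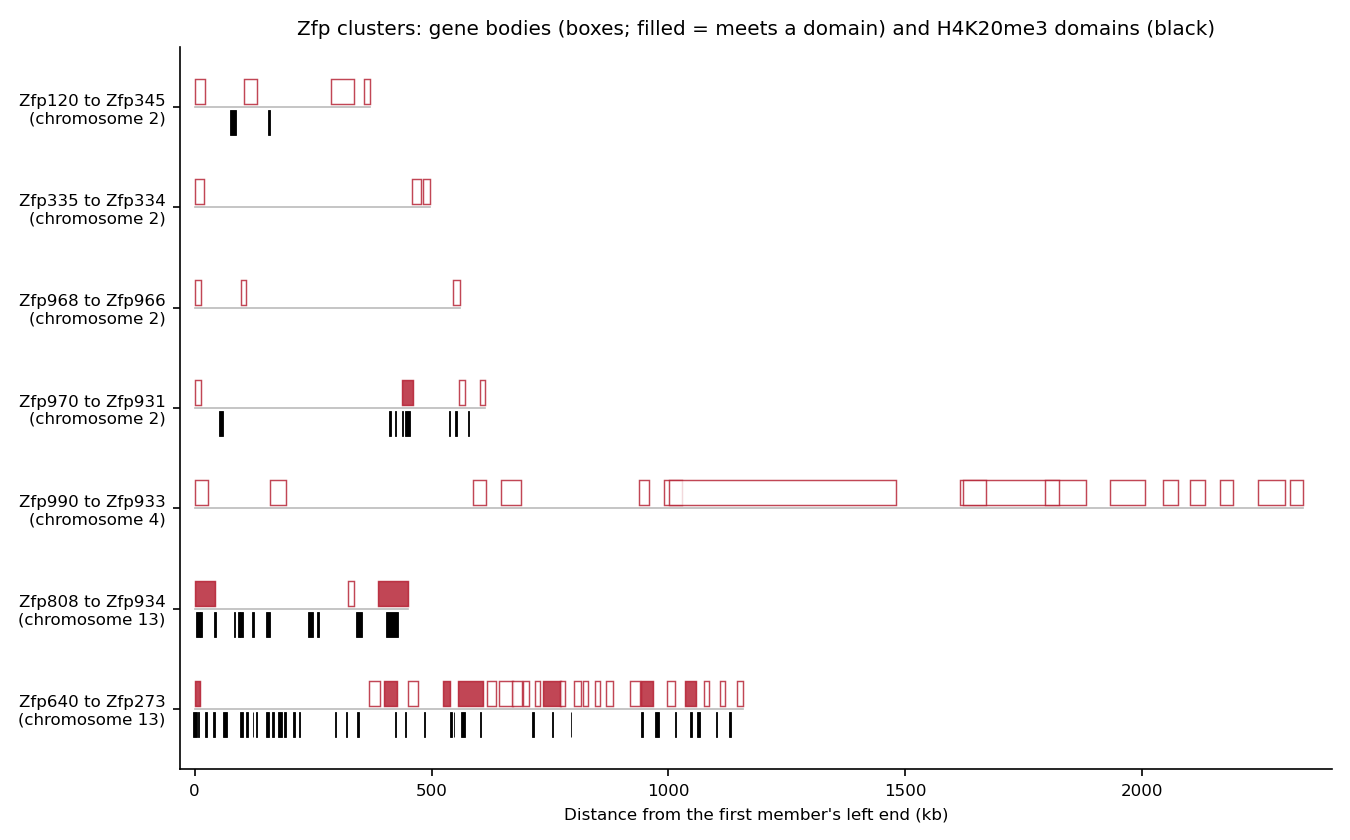
The 7 Zfp clusters drawn to scale, with the distance from the left end of the first member in kb on the x axis. Boxes above each line are member gene bodies, filled where they meet a domain, and black bars below are H4K20me3 domains. The chromosome 4 cluster of 2338 kb has no bar, while 35 bars stand in the larger chromosome 13 cluster of 1157 kb.

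Where a domain met a member, clustered genes had more of their body covered than single genes at the median, though not among shorter members. The median covered share was 20.0% in the 10 clustered genes that met a domain (range 2.01 to 67.7%) and 6.24% in the 10 single genes (0.590 to 91.6%). It was 4.29% in all protein-coding genes that met one, and 11.0% in Zfp genes on other chromosomes that did. The clustered genes on domains had a median length of 26.8 kb and the single ones of 93.9 kb. Length therefore differs between the classes here, and its part in the covered share was not tested. Among members at or above the median length of 21.5 kb, 8 of 28 clustered (28.6%) and 8 of 20 single genes (40.0%) met a domain, beside 26.5% of all protein-coding genes of that length. Among shorter members the counts were 2 of 29 (6.90%) and 2 of 18 (11.1%), beside 4.39%. The median covered share of the longer members that met a domain was 20.0% in clustered and 4.37% in single genes. For the shorter ones it was 34.8 and 53.1%, the other order, from 2 genes in each class. Over all protein-coding genes, those that met a domain had a median length of 80.4 kb and those that met none of 14.4 kb.

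Counted by bases, overlapping gene bodies once, domains held 4.16% of the 1997 kb of clustered gene bodies and 3.49% of the 1963 kb of single gene bodies. The share was 1.89% for all protein-coding genes and 2.375% for Zfp genes on other chromosomes. Without the chromosome 4 cluster, a setting chosen after the values were seen, the clustered share was 9.90%. The difference of the classes turned to the other sign without chromosome 2 or 13, and with the cluster rules of 200 kb gaps or at least 5 members.

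The 20 members shared bases with 28 domains, none of which met more than 1 member. Their median width was 4.20 kb, beside 3.00 kb for all 28210 domains, and 5 of the 28 (17.9%) were wider than 10 kb, beside 7.21% of the list. A wider domain is more likely to share a base with any gene. The widths of domains on other genes were not computed, so the greater width is not shown to be particular to members. Of the 28, 23 lay wholly inside the gene and 5 crossed one end.

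The member with the largest covered share was Zfp996, a single gene at chr12:18387491-18406758. A domain of 26.3 kb (chr12:18389101-18415350) began 1.61 kb inside the gene, took in 17.7 kb or 91.6% of it and ran on past its end. Its 50 kb flanks had 26.1% in domains, a share that includes the part of this same domain past the gene end. Zfp640, the first gene of the larger chromosome 13 cluster, followed with 7.13 kb or 67.7% of its body in 2 domains, one of them 8.85 kb wide and crossing the gene end. Zfp972, in the cluster Zfp970 to Zfp931 of chromosome 2, had 11.7 kb or 51.8% of its body in 2 domains, of 11.3 and 0.450 kb. The pseudogene Gm14327 overlaps the whole of Zfp972, so the domain cannot be given to one of them.

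The promoters of these 3 genes are shown because the domains covered most of the gene and stopped short of its start. Each line gives the 250 bases before the RefSeq start (GRCm38.p6, 5′ to 3′ on the gene's strand), with CG dinucleotides in capitals. They lie at chr12:18387241-18387490 on the plus strand (Zfp996), chr13:66680804-66681053 on the minus strand (Zfp640) and chr2:177925651-177925900 on the minus strand (Zfp972).
Zfp996: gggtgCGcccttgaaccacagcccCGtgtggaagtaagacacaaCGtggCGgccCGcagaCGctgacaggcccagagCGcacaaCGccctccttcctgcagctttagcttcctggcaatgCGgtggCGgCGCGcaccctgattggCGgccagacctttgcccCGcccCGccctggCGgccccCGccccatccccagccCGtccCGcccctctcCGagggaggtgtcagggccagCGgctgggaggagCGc
Zfp640: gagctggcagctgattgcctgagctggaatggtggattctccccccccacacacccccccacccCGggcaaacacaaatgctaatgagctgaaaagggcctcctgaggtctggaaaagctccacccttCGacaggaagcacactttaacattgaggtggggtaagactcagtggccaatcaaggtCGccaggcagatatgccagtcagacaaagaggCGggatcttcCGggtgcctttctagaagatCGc
Zfp972: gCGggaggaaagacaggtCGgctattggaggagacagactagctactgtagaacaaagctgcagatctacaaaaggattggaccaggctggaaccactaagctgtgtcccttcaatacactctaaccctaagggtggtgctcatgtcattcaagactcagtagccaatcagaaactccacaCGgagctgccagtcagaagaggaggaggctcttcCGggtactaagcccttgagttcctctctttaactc
The stretch of Zfp996 held 22 CG dinucleotides, that of Zfp640 held 6 and that of Zfp972 held 4. The distance from the start to the nearest domain was 1.61 kb for Zfp996, 1.75 kb for Zfp640 and 6.30 kb for Zfp972.

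No member had its start in a domain. A strand, and with it a start, was known for 80 of the 95 members, and 0 of 80 starts lay in a domain, which allows a share of up to 3.75% by counting error alone. The share over the 17274 protein-coding genes with a strand was 1.31%, below that limit, so a difference from other genes was not detectable with 80 genes. None of the 99 promoter windows of these members, each from 250 bases before to 50 bases after a start, met a domain either, against 1.38% of 21045 windows of all protein-coding genes. The nearest start stood 1.14 kb from a domain (Zfp738).

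Domains reached the end of a few genes. Of 49 clustered genes with a strand, 5 had a domain in their last 2 kb (10.2%), and of 31 single genes 1 did (3.23%), beside 2.16% of all protein-coding genes with a strand. Among Zfp genes on other chromosomes, 12 of 248 did (4.84%). The clustered genes were Zfp808, Zfp640, Zfp455, Zfp729a and Zfp972, and the single gene was Zfp996. Cut into 5 equal parts from start to end, the bodies of clustered genes had 3.03, 3.07, 3.64, 3.70 and 4.39% of their bases in domains. Those of single genes had 0.719, 7.71, 6.05, 3.03 and 1.24%. Few genes carried these shares, with 3 to 6 clustered and 1 to 6 single genes on a domain in each of the 5. In the part nearest the start and the part nearest the end of single genes, Zfp996 alone had a domain. The 7.71% of single genes was 3.16% without Zfp277, and their 3.03% was 1.82% without Zfp996. In clustered genes, in order, the shares were 1.57 and 1.17% without Zfp808, 2.29% without Zfp972, and 1.92 and 3.18% without Zfp458.

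**Figure D3:**
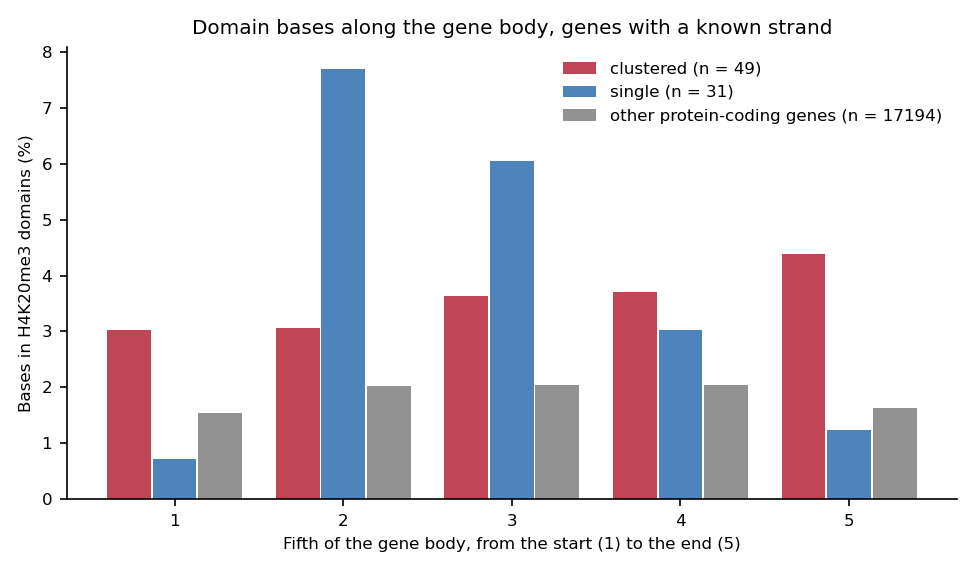
Percent of bases in H4K20me3 domains in 5 equal parts of the gene body, from the start (1) to the end (5), for clustered members (n = 49), single members (n = 31) and other protein-coding genes (n = 17194) with a known strand. Clustered genes have their highest share, 4.39%, in part 5, single genes theirs, 7.71%, in part 2, and other genes lie between 1.53 and 2.05%.

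The larger chromosome 13 cluster (chr13:66670274-67827000) had domains through most of its length. It held 35 domains, 9 on members and 26 on none, or 30.3 per Mb, which covered 11.9% of the span, where chromosome 13 as a whole had 5.21%. Domains took 6.98% of member bodies and 15.1% of the sequence between them. That sequence holds genes of other names, among them the zinc finger gene Rsl1, so it is not free of zinc finger genes. The 500 kb on either side of the cluster had 20.5 and 20.0% in domains. Of its 24 members 16 carry a RefSeq synonym that begins with Rslcan, for candidates of the regulator of sex limitation. Rsl1 and Rsl2 are KRAB zinc finger genes known in mouse liver for restraining genes of the male pattern, and neither Rsl1 nor Zfp429, whose synonym is Rsl2, met a domain.

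Besides Zfp640, this cluster had 6 genes on domains. Zfp458 had 12.6 kb or 23.6% of its body covered by 2 domains of 10.4 and 2.25 kb. Zfp65 had 3.90 kb (16.3%) and Zfp729a 3.49 kb (13.9%), the domain of Zfp729a reaching past its end. Zfp708, known in the mouse embryo for keeping DNA methylation on a class of retroviral repeats, had 2.40 kb (8.40%). Zfp459 had 1.95 kb (5.10%), and Zfp455 only the last 0.298 kb (2.01%) of its body under a domain of 4.65 kb. The other 17 members met none, with a median distance to the nearest domain of 11.9 kb, and the longest stretch of the cluster without a domain, 146.1 kb, held 5 of them: Zfp874b, Zfp58, Zfp87, Zfp748 and Zfp729b. Its nearest misses were Zfp738 at 1.14 kb, Zfp729b at 1.59 kb and Zfp429 at 3.37 kb.

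Genes of other names in this cluster met domains too. Of 7 other protein-coding genes 2 did, Gm10323 with 69.3% of its body and Ptdss1, a phosphatidylserine synthase gene, with 4.80%. Of 15 pseudogenes 4 did, and of 10 long noncoding RNA genes also 4. The shares over all pseudogenes and all long noncoding RNA genes were not computed, so these counts do not set the cluster apart. Between Zfp640 and the next member, Zfp712, lay 357.8 kb without a Zfp gene, and 16 of the 35 domains stood there.

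The smaller chromosome 13 cluster (chr13:62129857-62579321) was the most densely covered, with 12 domains over 20.7% of its 449.5 kb. Zfp934 carried the domain with the most bases in any member, 24.6 kb wide and wholly inside the gene (chr13:62533651-62558250), which took 39.3% of its body. Zfp808 had 3 domains that shared 15.0 kb with it (34.0%), the last of which crossed its end. Zfp935 between them met none and stood 3.65 kb from the nearest, a domain of 13.7 kb. Domains held 32.9% of the member bodies and 16.3% of the sequence between them. By number, 4 of the 12 domains met a member and 8 met none, and by length 39.6 kb lay in members and 53.6 kb between them. Of the latter, 14.85 kb lay in the protein-coding gene Gm3604, which is no member by its name.

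**Figure D4:**
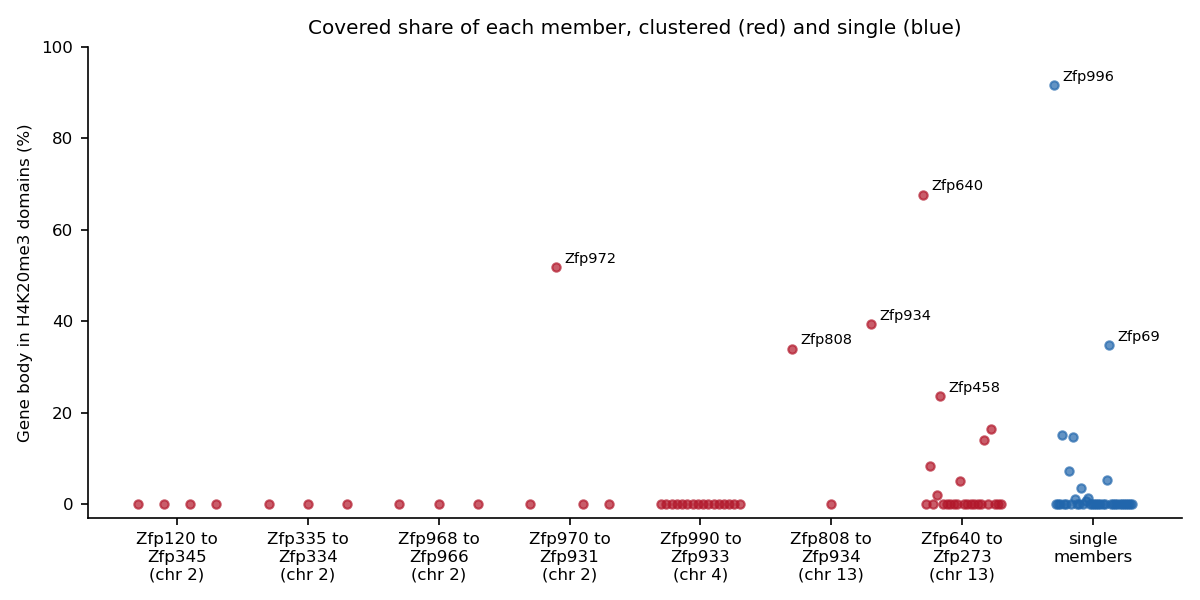
Percent of each member's gene body in H4K20me3 domains, with members in genomic order within each cluster (red) and single members at the right (blue). Members above 20% are named, and the 26 members of 4 clusters lie at 0.

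On chromosome 4, by contrast, the whole array of 16 Zfp genes stood in a stretch without a single domain. The array spans 2338 kb (chr4:145510759-147849126), and the stretch of 2472 kb runs from chr4:145383301 to 147855450. Of 28157 stretches between neighbouring domains on chromosomes 1 to 19 and X, with a median of 39.2 kb, only 1 was longer, on X. Assembly gaps and how uniquely reads map were not assessed for any stretch, so a lack of listed domains does not show a lack of the mark. Chromosome 4 as a whole had 5.43% of its length in domains, the highest share among the 4 chromosomes. Within the array none of the other 2 protein-coding genes, Rex2 and Gm13212, none of 7 long noncoding RNA genes and none of 52 pseudogenes met a domain. These counts follow from the lack of domains in the stretch and add no further result. The 500 kb to its left and right had 2.64 and 1.53% in domains. Members include Zfp979, whose RefSeq synonym Ssm1b marks it as a strain-specific modifier known to affect DNA methylation of a transgene in mouse embryos, and Zfp982, known as expressed in mouse embryonic stem cells. The bodies of Zfp993 and Zfp978 are given as 478.6 and 267.1 kb and overlap other members, so the annotation of single genes is uncertain here.

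Distal chromosome 2 showed the same kind of stretch. From chr2:174317401 to 176749500, over 2432 kb, no domain was listed, and the stretch, number 4 by length in the list, held 6 members: Zfp831, Zfp968, Zfp965, Zfp966, Zfp967 and Zfp973. It held 28 protein-coding genes in all. The farthest of all members from a domain was Zfp965, at 1153 kb, followed by Zfp981 (1119 kb) and Zfp992 (1066 kb) of chromosome 4. Past the stretch, the cluster Zfp970 to Zfp931 had 8 domains that covered 6.26% of its 613.7 kb, 7 of them to the right of Zfp972, on it or within 50 kb to its left. Zfp971 stood 5.83 kb, Zfp931 23.0 kb and Zfp970 36.7 kb from a domain. In the cluster Zfp120 to Zfp345, 2 domains of 13.5 and 4.35 kb lay between the members, on Gm14139 and Gm14124. The run Zfp335 to Zfp334 had no domain over 496.4 kb. It includes Zfp335, a conserved regulator of neural progenitors.

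Clustered members shared more promoter sequence with other genes than single members did, at the median, with wide differences between clusters. Of the 36-base words in a member's 300-base promoter, the median share also found in the promoter of another protein-coding gene, on either strand, was 100% in Zfp968 to Zfp966 (3 genes), 68.5% in Zfp970 to Zfp931 (4 genes), 52.6% in Zfp120 to Zfp345 (4 genes), 26.0% in the chromosome 4 cluster (12 genes), 10.8% in the smaller and 0.377% in the larger chromosome 13 cluster (2 and 21 genes) and 0% in Zfp335 to Zfp334 (3 genes). It was 3.77% over the 49 clustered and 0% over the 31 single genes. The 40 clustered genes with a promoter that met no domain had a median of 4.91%, and the 9 that met one had 0%, although 3 of the 9 shared some words and Zfp640 shared 45.7%. Of the 80 members with a promoter, 13 shared at least 50% of their words, and none of the 13 met a domain. Over all protein-coding genes 14.1% did, so a count of 0 among so few genes says little about them. How reads that match several places were treated is stated neither in the labels nor in the list. The part of duplicated sequence in the missing domains was not tested.

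**Figure D5:**
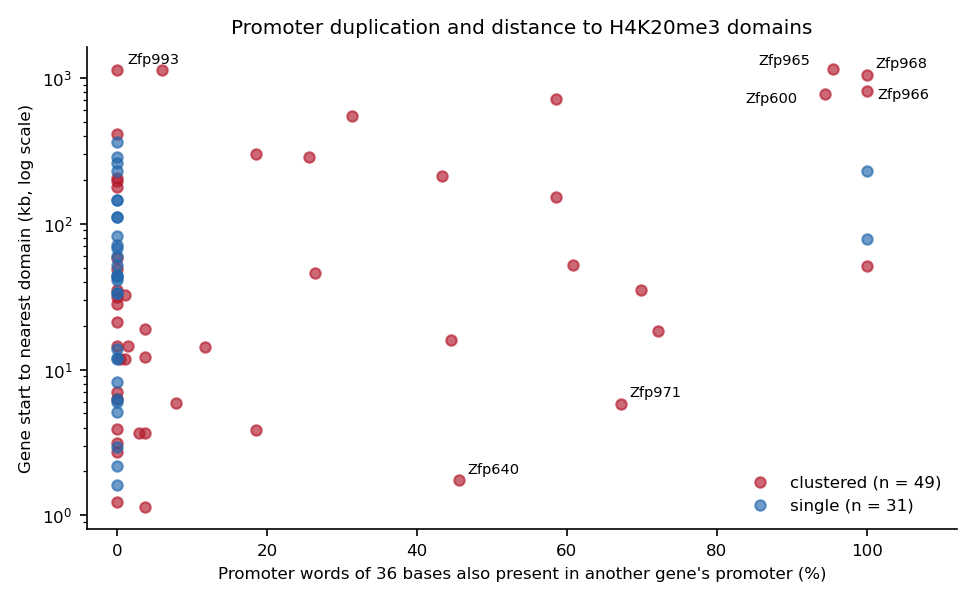
Percent of 36-base words of a member's promoter that occur in another protein-coding gene's promoter (x axis) against the distance from the gene start to the nearest H4K20me3 domain in kb (y axis, log scale), for 49 clustered (red) and 31 single (blue) members. Zfp965, Zfp966, Zfp968 and Zfp600 stand high at the right, while Zfp971 lies 5.83 kb from a domain with 67.2% of its words shared.

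Copies from these arrays are shown to make the likeness visible. The 250 bases before the start of Zfp966 (chr2:175931101-175931350, minus strand), called clustered, and of Zfp967 (chr2:176520754-176521003, plus strand), called single for a gap of 589.9 kb, were identical, and both genes lay in the stretch without domains. Zfp971 (chr2:178023034-178023283, plus strand) is set below with the bases that do not match Zfp966 in capitals, at 87.1% identity over an alignment of 264 positions.
Zfp966: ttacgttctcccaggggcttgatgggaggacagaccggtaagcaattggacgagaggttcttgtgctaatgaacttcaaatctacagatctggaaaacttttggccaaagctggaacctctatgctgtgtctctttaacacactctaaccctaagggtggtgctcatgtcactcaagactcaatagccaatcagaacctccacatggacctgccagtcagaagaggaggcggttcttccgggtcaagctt
Zfp971: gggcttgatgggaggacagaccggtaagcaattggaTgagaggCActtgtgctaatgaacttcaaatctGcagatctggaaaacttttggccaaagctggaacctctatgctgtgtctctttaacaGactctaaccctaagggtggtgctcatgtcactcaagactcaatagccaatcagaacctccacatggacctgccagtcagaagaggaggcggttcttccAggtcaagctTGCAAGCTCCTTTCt
On chromosome 4, Zfp600 (chr4:146156577-146156826, plus strand) and Zfp979 (chr4:147642509-147642758, minus strand) had 94.1% identity over 256 aligned positions. Here too, most of the 15 positions without a match lie at the shifted ends. Capitals mark the bases of each that do not match the other.
Zfp600: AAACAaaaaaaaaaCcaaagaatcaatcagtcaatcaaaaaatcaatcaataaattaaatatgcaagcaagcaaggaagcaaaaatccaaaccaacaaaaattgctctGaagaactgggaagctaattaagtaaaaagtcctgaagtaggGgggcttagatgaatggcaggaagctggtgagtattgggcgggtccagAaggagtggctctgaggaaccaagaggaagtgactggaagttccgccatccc
Zfp979: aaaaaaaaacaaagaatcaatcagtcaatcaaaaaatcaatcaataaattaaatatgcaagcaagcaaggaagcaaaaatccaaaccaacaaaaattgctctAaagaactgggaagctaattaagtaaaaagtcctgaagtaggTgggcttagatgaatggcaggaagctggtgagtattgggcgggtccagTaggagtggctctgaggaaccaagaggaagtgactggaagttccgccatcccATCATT

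Promoters of clustered genes were poorer in CG than those of single genes. The median number of CG dinucleotides in 300 bases was 7 in clustered and 18 in single genes, beside 14 in all 17274 protein-coding genes, and the median GC content was 48.3 and 59.7%, beside 56.3%. The highest identity to another member's promoter had a median of 75.3% in clustered and 54.8% in single genes, and for 33 of 49 clustered genes the best match lay in their own cluster. The letters CCAATCA, the CCAAT box with 2 further bases, were noticed in the printed sequences and then looked for on both strands of the 250 bases before each start. They were present in 16 of 49 clustered genes (32.7%) and 6 of 31 single genes (19.4%), and in 9.16% of all protein-coding genes. TTCCGG, noticed in the same way, was present in 32.7% of clustered and 38.7% of single genes, and in 15.4% of all protein-coding genes. Copies of 1 promoter count several times in these shares. The printed genes that hold the letters are also counted, so part of the excess over all genes was given by the choice of letters.

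Among single genes, domains fell mostly inside long genes. Zfp277 had 2 domains of 15.0 and 4.65 kb in its body of 130.7 kb (15.0% covered). Zfp462, a gene of 139.1 kb known in embryonic stem cells for guiding H3K9 methylation, had 3 domains and 10.1 kb covered (7.23%). Zfp106, which encodes an RNA-binding protein needed for motor neurons in mouse, had 3.00 kb (5.26%). Zfp385b, of 407.1 kb, had 2.40 kb (0.590%), Zfp804a, whose human counterpart is linked to schizophrenia, 2.85 kb (1.36%), and Zfp618 1.80 kb (1.03%).

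Zfp69, a KRAB zinc finger gene tied to diabetes traits in mouse crosses, had 7.50 kb or 34.8% of its 21.6 kb in 1 domain, although no domain lay within 50 kb on either side. Zfp37 had 2.85 kb (14.5%), with 18.4% of its flanks covered, and Zfp72 had 0.75 kb in 1 domain. Of the 28 single genes without a domain, Zfp386 (2.16 kb), Zfp46 (2.81 kb) and Zfp346 (2.92 kb) stood nearest to one, and Zfp512b (364.7 kb), Zfp831 (281.3 kb) and Zfp408 (255.4 kb) farthest.

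Within 50 kb on either side, 3.30% of the sequence lay in domains around clustered genes and 0.975% around single genes, at the median, beside 4.04% for Zfp genes on other chromosomes and 0.600% for all protein-coding genes. The means were 5.35% for clustered and 3.32% for single genes, beside 6.47% for Zfp genes on other chromosomes and 3.95% for all protein-coding genes, so single genes were above all genes by the median and below them by the mean. No domain at all lay in the flanks of 23 of 57 clustered and 18 of 38 single genes. Members without a domain stood a median of 43.2 kb (clustered) and 52.7 kb (single) from the nearest, beside 53.0 kb for all protein-coding genes without one.

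Of 16 genes of the pathway that KRAB zinc finger proteins act through, 3 met a domain, beside 14.1% of all protein-coding genes. They were Suv39h1 (41.9% of its body), Setdb1 (18.7%) and the HP1 gene Cbx1 (6.65%). Suv39h1 and Setdb1 carry fl/fl alleles in this line, and the part of the altered loci in these domains was not tested. Trim28 stood 33.8 kb from the nearest domain, Kmt5b 6.71 kb and Kmt5c 7.49 kb, and the DNA methyltransferase genes Dnmt1, Dnmt3a and Dnmt3b met none.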

How the data were processed

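H4K20me3 ChIP-seq was made from 12 libraries of mouse embryonic stem cells. The authors deposited 1 list of domains with chromosome, start and end, called with RSEG per the file name, and no source used here states the version, the threshold or the libraries behind it. Per the submitters' processing notes, bedtools, deepTools, SAMtools 1.1 and Bowtie2 2.3.4.1 were used, without a stated role. The list has no sample column, so the planned comparison of times was not run, depth is unknown, and no p is given. Domain starts were moved to 1-based positions.

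Genes came from RefSeq GRCm38.p6, which is mm10. Of 49997 genes, 49214 on chromosomes 1 to 19 and X that start at or after 3 Mb were used. Strand came from the RefSeq promoter table, which held 80 of the 95 members, and the other 15 entered no measure that needs a strand. Protein sequences were not used here, so zinc fingers were not counted. Promoters were aligned globally in pairs with Biopython 1.88. Intervals are exact 95% Clopper-Pearson, combined by the square-and-add rule for differences, and cover counting error only.

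Genes named in full were the 12 members with the largest covered share, the 5 with the most covered bases, the leader of each cluster, and the 3 nearest and 3 farthest members without a domain in each class, and the widest domains of a cluster. Other members and genes were named after their values were seen. The members, lists and rules were chosen with earlier results of these data known. Interval functions were tested on simulated data. Values were computed in Python 3.11.15 with pandas 2.3.3 and numpy 2.4.6, intervals with scipy 1.17.1, and plots with matplotlib 3.10.9.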

Additional observations from a re-analysis of the deposited data

How the results depend on the processing

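No paired analysis was possible because the domain list names no sample, so replicate numbers attach to no value, and no replicate could be left out. The share of members that met a domain exceeded that of other protein-coding genes by 6.94 percentage points, and was higher in all 14 alternatives. Leaving out the 13 members whose promoters shared at least 50% of their words, a setting chosen after the data were seen, gave 10.3 points. The 15 members without a promoter sequence were not assessed for sharing and stayed in. None of those 13 met a domain, so this setting could only raise the share of members. The other alternatives gave 1.88 to 9.42 points. The count of 20 members became 11 with at least 10% and 3 with at least 50% of the body covered. It was 13 when domains under the median width were left out. It was 6 for the 1 kb around each gene end and 10 without chromosome 13, and 16 to 22 in the other 7. Among these 7, leaving out the 13 members with shared promoters kept the count at 20, as none of them met a domain. The difference between clustered and single members, in the share that met a domain, was -8.77 points. It was 1.75 with at least 10% and 0.877 with at least 50% of the body covered, 0.877 when domains under the median width were left out, 6.14 for the 1 kb around each gene end, 2.96 without chromosome 4 and -28.8 without chromosome 13. In the other 14 alternatives it was -11.9 to -1.93, and in the planned ones among them -11.9 to -4.215. Those chosen after the data were seen gave -1.93 without the chromosome 4 cluster and -5.87 with the run Zfp335 to Zfp334 counted as single. Leaving out the 13 members with shared promoters, also chosen then, gave -6.04. The genes left out or moved in these settings met no domain. Counted by bases, the difference was 0.669 points. It was -2.72 with cluster gaps of at most 200 kb, -3.13 with clusters of at least 5 members, -2.06 without chromosome 2, -3.17 without chromosome 13, 0.146 with gaps of at most 1 Mb, 6.74 without chromosome 4 and 2.38 without chromosome 12. Settings chosen after the data were seen gave 6.41 without the chromosome 4 cluster and 1.19 without the 13 members whose promoters shared at least 50% of their words, and the other 4 alternatives gave 0.598 to 0.992 points. A comparison by number of zinc fingers was not run. The causes were not tested. The list has no replicates and no depth, so the one error available is the counting interval over genes, which included 0 for both differences in the share that met a domain.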
